A study of Mus musculus with 6 samples.

Results

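The genes described here are the 5 mouse VEGF ligands, their 3 receptor tyrosine kinases and the 2 neuropilin coreceptors, taken by gene name from the deposited count table. All 10 were found among its 54532 genes and all 10 passed the filter on low counts, which left 18530 genes. The table holds bulk RNA-seq read counts for 6 libraries of primary cultured astrocytes from the cortex of mouse pups. The 3 knockout libraries came from GFAP-Cre::NEOf/f pups, which lose a floxed Neo1 gene where the promoter of the astrocyte filament gene Gfap turns on Cre recombinase. The 3 control libraries came from littermates, which the labels call only control and whose library names (Neoff) name no Cre. No source used here gives the age or strain of the pups or the time in culture. Replicates are called biological, but no label names a pup, litter or culture behind them, so p-values measure the spread between these libraries, which may be partly technical.

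VEGF ligands are secreted dimers that bind receptor tyrosine kinases, mostly on endothelial cells, and drive the growth and leakiness of blood and lymphatic vessels. VEGFA and VEGFB, with placental growth factor (gene Pgf), bind VEGFR1 (gene Flt1), which holds ligand tightly and signals weakly. VEGFA signals mainly through VEGFR2 (gene Kdr), and VEGFC and VEGFD through VEGFR3 (gene Flt4). Neuropilins (genes Nrp1 and Nrp2) have no kinase of their own, bind VEGF isoforms beside these receptors, and also bind class 3 semaphorins. In the developing brain and retina, astrocytes are a known source of VEGFA, whose transcription is raised by hypoxia-inducible factors (HIF) when oxygen falls. The title of the study names a question about astrocytic neogenin, the product of Neo1, and angiogenesis through HIF and VEGFA.

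Total counts ran from 60819277 to 106081115 per library. Counts of the 10 genes ran from 31, for Vegfd in a control library, to 18262, for Nrp2 in a knockout library, and the 9 genes other than Vegfd had at least 583 counts in every library. Neo1, the targeted gene, was at 100.8, 105.99 and 104.6 CPM (normalised read count, scaled to library size with TMM factors) in knockout cultures, against 189, 189 and 198 CPM in control cultures. On the log2 scale that is -0.89, knockout over control, with an SE of 0.05 and an adjusted p of 5.8e-11 by the quasi-likelihood test of edgeR, and since all exons are pooled the count says nothing on which exon was removed. The first principal component of log2 CPM separated the genotypes, with 49.3% of the variance, and the second, with 19.6%, separated knockout replicate 2 from the other 2 knockout libraries. Of 10 astrocyte markers 2 rose and 6 fell, beside 19.6% called higher and 18.7% called lower over all genes tested. Their median log2 fold change was -0.18, with sums of 2719 to 2848 CPM in knockout and 2966 to 3031 CPM in control libraries. Only Gfap and Aqp4, a water channel gene of astrocytes, are given singly here. Gfap was at 431 ± 3.85 CPM in knockout and 946 ± 20.8 CPM in control cultures, and Aqp4 at 879 ± 31.2 CPM and 605 ± 35.5 CPM in the same order (SD, n = 3 each). "Rose" and "fell" are used below only where the adjusted p, corrected over all 18530 genes, was under 0.05.

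Of the 10 genes, 8 rose and 1 fell in knockout cultures, while Vegfd did not pass the test. Over all genes tested, 19.6% were called higher, 18.7% lower and 38.3% either way by the same rule. With scaling by total counts in place of TMM, 7 of the 10 rose and 1 fell, and over all genes 2921 were higher and 4499 lower, against 3627 and 3466 with TMM. Without knockout replicate 2, also 7 rose and 1 fell; without control replicate 1, 7 rose and 0 fell, and without control replicate 2, 8 rose and 0 fell. For 8 genes every knockout library lay above every control library, for 1 every knockout library lay below, and for Vegfd the groups overlapped; over all genes tested these shares were 24.7% above and 24.5% below. The median log2 fold change of the 10 genes was 0.68, against -0.002 over all genes tested.

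**Figure D1:**
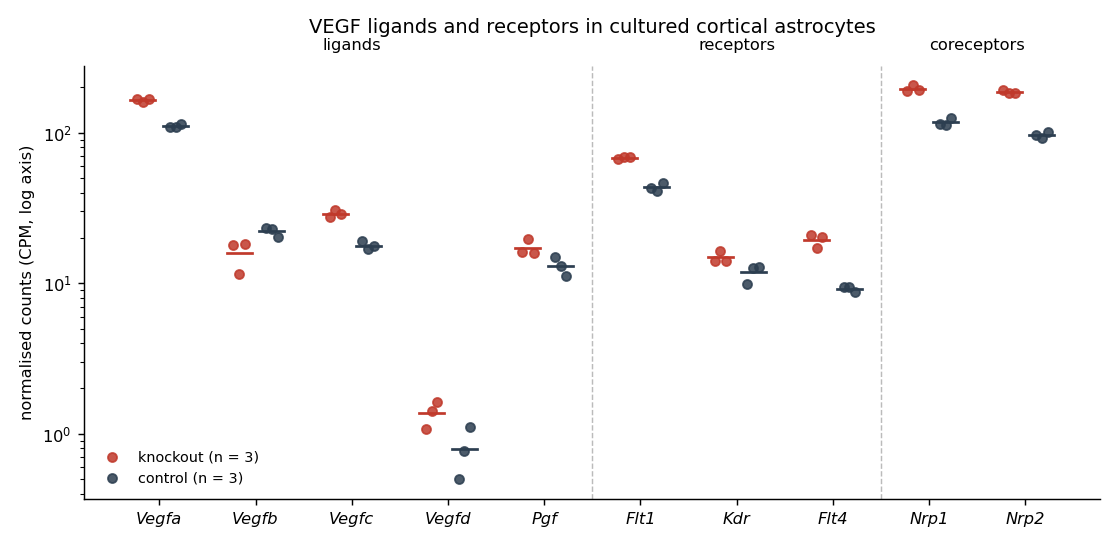
Normalised counts (CPM, log axis) of each gene in the 3 knockout libraries (red, left of each pair) and the 3 control libraries (dark, right); points are libraries and bars are means. Knockout points lie above control points for 8 genes, below them for Vegfb, and among them for Vegfd.

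The 250 bases before the RefSeq transcription start (build GRCm38.p6) are shown for 4 genes, because these hold the contrast between members that rose and the one that fell. They are Vegfa, which rose, on the minus strand at chr17:46032378-46032627, and Vegfb, which fell, on the minus strand at chr19:6987652-6987901. The receptor genes Flt1, minus strand at chr5:147726012-147726261, and Kdr, minus strand at chr5:75978456-75978705, both rose. Each is written 5′ to 3′ with the core letters bound by HIF, ACGTG or GCGTG on either strand, in capitals.
Vegfa: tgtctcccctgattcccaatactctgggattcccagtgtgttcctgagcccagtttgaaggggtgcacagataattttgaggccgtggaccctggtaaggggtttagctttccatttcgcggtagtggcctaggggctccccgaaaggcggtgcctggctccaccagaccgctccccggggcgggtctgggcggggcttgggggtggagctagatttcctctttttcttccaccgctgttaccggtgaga
Vegfb: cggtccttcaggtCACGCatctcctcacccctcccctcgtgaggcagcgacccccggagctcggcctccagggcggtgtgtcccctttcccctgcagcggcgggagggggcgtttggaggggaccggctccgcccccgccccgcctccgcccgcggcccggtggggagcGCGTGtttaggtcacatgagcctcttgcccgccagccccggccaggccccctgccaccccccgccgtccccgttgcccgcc
Flt1: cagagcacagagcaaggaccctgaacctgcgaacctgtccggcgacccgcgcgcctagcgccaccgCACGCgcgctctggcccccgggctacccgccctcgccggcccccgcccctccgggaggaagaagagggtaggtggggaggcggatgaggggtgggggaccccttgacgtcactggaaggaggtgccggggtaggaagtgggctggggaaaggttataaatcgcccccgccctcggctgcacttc
Kdr: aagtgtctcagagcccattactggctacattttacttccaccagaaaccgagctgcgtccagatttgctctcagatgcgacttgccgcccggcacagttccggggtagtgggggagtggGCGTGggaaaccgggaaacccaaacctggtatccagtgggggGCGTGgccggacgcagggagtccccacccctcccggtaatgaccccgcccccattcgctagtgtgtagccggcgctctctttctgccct
This window of Vegfa held no HIF core. Bases farther upstream than 250 were not searched in any gene, so a site there would be missed. The window of its other RefSeq start, 7206 bases from the annotated 5′ end of the gene, held 2. That second window, chr17:46025164-46025413, lies inside the gene, downstream of the first start, and whether its letters are coding sequence was not examined. Among the other windows shown, that of Vegfb held 2, that of Flt1 held 1 and that of Kdr held 2. Taking the first RefSeq start of each of the 10 genes, 6 windows held a HIF core (Vegfb, Pgf, Flt1, Kdr, Nrp1 and Nrp2), against 38.6% of the 32851 promoter windows of this length in the table. The Sp1 box GGGCGG, on either strand, was in 9 of 10 windows, all but that of Vegfd, against 32.7% of all windows. The letters TATAAA, on either strand, were in the windows of Flt1, at -31 from the start, and of Vegfd, at -73, against 12.4% of all windows. No member's window held the AP-1 letters TGANTCA, which 6.75% of all windows did. The GC content of the windows was 59.2% to 76.4% in 9 members, highest in Vegfb, and 42.4% in Vegfd, against a median of 52.4% over all windows. RefSeq's start lies 416 bases from the annotated 5′ end of the gene for Flt4, 469 for Nrp1 and 477 for Pgf, so their windows may miss other starts. These matches are letters in a window, and no binding was measured.

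Among the ligands, 3 rose, 1 fell and 1 did not pass the test. Vegfa (ENSMUSG00000023951, GRCm38 chromosome 17, 46016993 to 46032369, minus strand) encodes the main growth factor of blood vessel endothelium. It was at 169, 159 and 167 CPM in knockout cultures, against 110.0, 109 and 115 CPM in control cultures. Every knockout library was above every control library, by a log2 fold change of 0.57 ± 0.05 (SE) with an adjusted p of 3.1e-08 by edgeR, or 1.48-fold. Vegfc (ENSMUSG00000031520, chromosome 8, 54077606 to 54187096, plus strand), a ligand of lymphatic vessel growth, had 27.6, 30.5 and 29.0 CPM in knockout cultures, against 19.0, 16.8 and 17.6 CPM in control cultures. The groups were again apart, with a log2 fold change of 0.71 ± 0.08 (SE) with an adjusted p of 8.8e-07 by edgeR, or 1.63-fold.

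Pgf (ENSMUSG00000004791, chromosome 12, 85166635 to 85177790, minus strand) encodes placental growth factor, which binds VEGFR1 and neuropilin but not VEGFR2. Its values were 16.1, 19.8 and 16.0 CPM in knockout cultures, against 14.9, 13.0 and 11.2 CPM in control cultures. The lowest knockout library lay just above the highest control library. The log2 fold change was 0.41 ± 0.11 (SE) with an adjusted p of 0.0081 by edgeR. Without control replicate 3 it was 0.30 with an adjusted p of 0.056 by edgeR; over all alternatives the adjusted p ran from 0.00026 to 0.056.

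Vegfb (ENSMUSG00000024962, chromosome 19, 6982473 to 6987651, minus strand) moved the other way. This ligand binds VEGFR1 and is linked more to vessel survival and fatty acid handling than to vessel growth. It was at 18.02, 11.6 and 18.2 CPM in knockout cultures, against 23.3, 23.1 and 20.4 CPM in control cultures. All knockout libraries were below all control libraries, and knockout replicate 2 was far below the other 2 knockout libraries. The log2 fold change was -0.48 ± 0.15 (SE) with an adjusted p of 0.024 by edgeR and -0.29 without knockout replicate 2 (adjusted p = 0.0083). The call was lost without control replicate 1 (adjusted p = 0.064) or control replicate 2 (adjusted p = 0.073); over all alternatives the adjusted p ran from 7.4e-07 to 0.073.

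Vegfd (ENSMUSG00000031380, X chromosome, 164373378 to 164402650, plus strand), the other ligand of VEGFR3, was scarce. Its counts were 103, 104 and 118 in knockout libraries, against 31, 53 and 120 in control libraries, which is 1.08, 1.42 and 1.61 CPM against 0.498, 0.769 and 1.11 CPM. Knockout replicate 1 lay below control replicate 3. The log2 fold change was 0.77 with an SE of 0.34 and a 95% interval of 0.06 to 1.48, and the adjusted p was 0.083 (edgeR). Without control replicate 3 the log2 fold change was 1.10 and the adjusted p 0.035; over all alternatives that p ran from 0.035 to 0.28.

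All 3 receptor genes rose, by different amounts. Flt1 (ENSMUSG00000029648, chromosome 5, 147561604 to 147726011, minus strand) encodes VEGFR1 and also, from a shorter transcript, a soluble form that holds ligand away from other receptors; a count per gene does not separate these forms. It was at 66.6, 68.6 and 69.2 CPM in knockout cultures, against 43.1, 40.8 and 46.5 CPM in control cultures. The knockout libraries differed little from each other and all lay above the controls, by a log2 fold change of 0.65 ± 0.06 (SE) with an adjusted p of 1.1e-07 by edgeR. Flt4 (ENSMUSG00000020357, chromosome 11, 49609263 to 49652739, plus strand), which encodes VEGFR3, had 20.9, 17.1 and 20.2 CPM in knockout cultures, against 9.37, 9.46 and 8.77 CPM in control cultures. Its log2 fold change of 1.08 ± 0.10 (SE) with an adjusted p of 1e-07 by edgeR, or 2.11-fold, was the highest among the 10 genes. A stretch of 146 bases of its longest transcript, which has 6255 bases, aligns at 96.6% identity to the pseudogene Olfr1372-ps1. That pseudogene had 213 to 459 counts per library, against 583 to 1996 for Flt4. Reads of the stretch could be assigned to either gene, and their number was not examined.

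Kdr (ENSMUSG00000062960, chromosome 5, 75932827 to 75978458, minus strand) encodes VEGFR2, the main signalling receptor for VEGFA. It was at 14.1, 16.3 and 14.1 CPM in knockout cultures, against 9.92, 12.6 and 12.9 CPM in control cultures. The groups did not overlap, although control replicate 1 lay well below the other 2 controls. The log2 fold change was 0.32 ± 0.11 (SE) with an adjusted p of 0.027 by edgeR. The call was lost with scaling by total counts (0.26, adjusted p = 0.072), without knockout replicate 2 (0.25, adjusted p = 0.091) and without control replicate 1 (0.21, adjusted p = 0.17); over all alternatives the adjusted p ran from 0.011 to 0.17.

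Both neuropilin genes rose. Nrp1 (ENSMUSG00000025810, chromosome 8, 128358604 to 128503363, plus strand), the coreceptor known for VEGFA and semaphorin 3A, was at 189, 207 and 191 CPM in knockout cultures, against 114, 112 and 126 CPM in control cultures. The change, as a log2 ratio, came to 0.74 (SE 0.05, adjusted p = 6.1e-09, edgeR), or 1.67-fold. Nrp2 (ENSMUSG00000025969, chromosome 1, 62703285 to 62818695, plus strand), the coreceptor known for VEGFC and semaphorin 3F, had 191, 183 and 184 CPM in knockout cultures, against 97.0, 92.6 and 102 CPM in control cultures. Each knockout library was far above each control library, by a log2 fold change of 0.94 ± 0.05 (SE) with an adjusted p of 6.1e-11 by edgeR, or 1.92-fold. Exons of Nrp1 hold the microRNA gene Mir1903 on the same strand, which had 0 counts in every library. A stretch of 100 bases of the longest Nrp2 transcript matches Mrgpre at 96.0% identity.

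**Figure D2:**
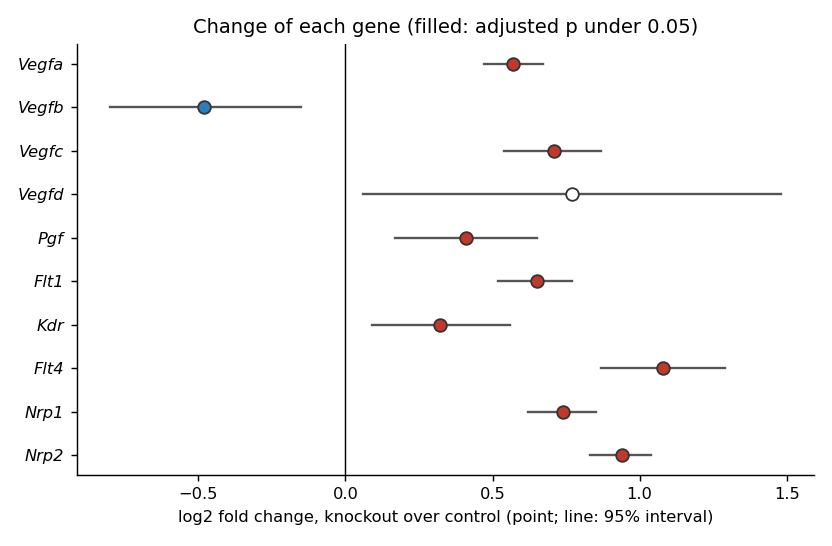
Log2 fold change of each gene, knockout over control (points), with its 95% interval from the fit, not adjusted for the number of genes (lines); filled points have an adjusted p under 0.05. Flt4 and Nrp2 stand highest at 1.08 and 0.94, Vegfb lies below 0 at -0.48, and the widest interval, 0.06 to 1.48, is that of Vegfd.

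Levels can be set side by side between genes only per length, here as CPM per kb of all annotated exon bases. On that scale Vegfa was the highest of the 10 genes, at 38.5 ± 1.20 in knockout and 26.0 ± 0.746 in control cultures (SD, n = 3 each). In knockout cultures it was followed by Nrp1 (20.004 ± 0.973), Nrp2 (15.7 ± 0.375), Vegfc (11.8 ± 0.596), Vegfb (9.93 ± 2.36), Pgf (5.95 ± 0.738), Flt1 (5.05 ± 0.102), Flt4 (2.36 ± 0.245), Kdr (1.64 ± 0.140) and Vegfd (0.570 ± 0.113). Among neighbours in that order, only the ranges of Vegfc and Vegfb overlapped. In control cultures Vegfb (13.9 ± 1.02) came after Vegfa, then Nrp1 (11.4 to 12.9, SD 0.774), Nrp2 (8.20 ± 0.390), Vegfc (7.26 ± 0.460), Pgf (4.49 ± 0.649), Flt1 (3.22 ± 0.213), Kdr (1.31 ± 0.183), Flt4 (1.12 ± 0.0453) and Vegfd (0.329 ± 0.127). There Vegfb overlapped with Nrp1, and Kdr with Flt4. Flt4 was therefore above Kdr on this scale in knockout cultures, whereas their ranges overlapped in control cultures.

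The order depends on the length used, since the annotation gives Nrp1 9785 exon bases in all but a longest transcript of 3645. Per kb of the longest transcript, Nrp1 (53.7 ± 2.61) stood above Vegfa (47.8 ± 1.49) in knockout cultures, and the 2 genes overlapped in control cultures, at 32.2 ± 2.08 for Nrp1 and 32.3 ± 0.927 for Vegfa (SD, n = 3 each). Flt1 also stood above Pgf on that scale, though in control cultures their ranges overlapped (5.92 to 6.75 and 5.36 to 7.17). Nrp1 stood above Vegfb in control cultures (32.2 and 17.4). In knockout cultures Vegfb stood above Vegfc (12.4 and 11.8), in overlapping ranges. Flt4 and Kdr were at 3.10 ± 0.322 and 2.50 ± 0.213 there in knockout cultures, in ranges of 2.74 to 3.34 and 2.38 to 2.75, which meet. In control cultures Kdr (1.675 to 2.181) stood above Flt4 (1.402 to 1.512) on that scale, without overlap.

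Shares within a library do not depend on scaling between libraries. Vegfa made up 58.1%, 57.9% and 57.0% of the reads per kb of the 5 ligands in knockout libraries, against 48.2%, 49.4% and 52.6% in control libraries. Its share was higher in all 3 knockout libraries, by 7.56 percentage points (exact permutation test, two-sided, p = 0.10, the smallest that 3 against 3 allows), or by 4.75 points if counts are not divided by length. The share of Vegfb was 16.5%, 11.2% and 16.6% in knockout libraries, against 27.2%, 27.9% and 24.9% in control libraries. Vegfc had 16.6%, 19.4% and 17.3% in knockout libraries, against 14.6%, 13.3% and 14.1% in control libraries. For Vegfb and Vegfc, too, the groups did not overlap. The share of Pgf was 8.94% ± 1.44 in knockout and 8.63% ± 1.06 in control libraries (SD, n = 3 each), a difference within the spread between replicates.

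Among the reads per kb of the 3 receptors, Flt4 held 28.1%, 23.2% and 26.8% in knockout libraries, against 21.0%, 20.6% and 17.9% in control libraries. Kdr held 17.3%, 20.1% and 17.1% in knockout libraries, against 20.2%, 25.1% and 24.1% in control libraries, so its share was lower although its level rose. The share of Flt1 was 55.8% ± 1.07 in knockout and 57.0% ± 2.42 in control libraries (SD, n = 3 each), a difference smaller than the spread between replicates. The log2 ratio of Vegfa to Flt1 was 3.00, 2.87 and 2.92 in knockout libraries, against 3.01, 3.08 and 2.96 in control libraries. The groups overlapped, with a difference of -0.0836 (exact permutation test, two-sided, p = 0.20). The log2 ratio of Nrp1 to Nrp2 was 0.260, 0.449 and 0.333 in knockout libraries, against 0.513, 0.547 and 0.583 in control libraries. It was lower in every knockout library, with a difference of -0.201 between the means (exact permutation test, two-sided, p = 0.10, the smallest possible).

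**Figure D3:**
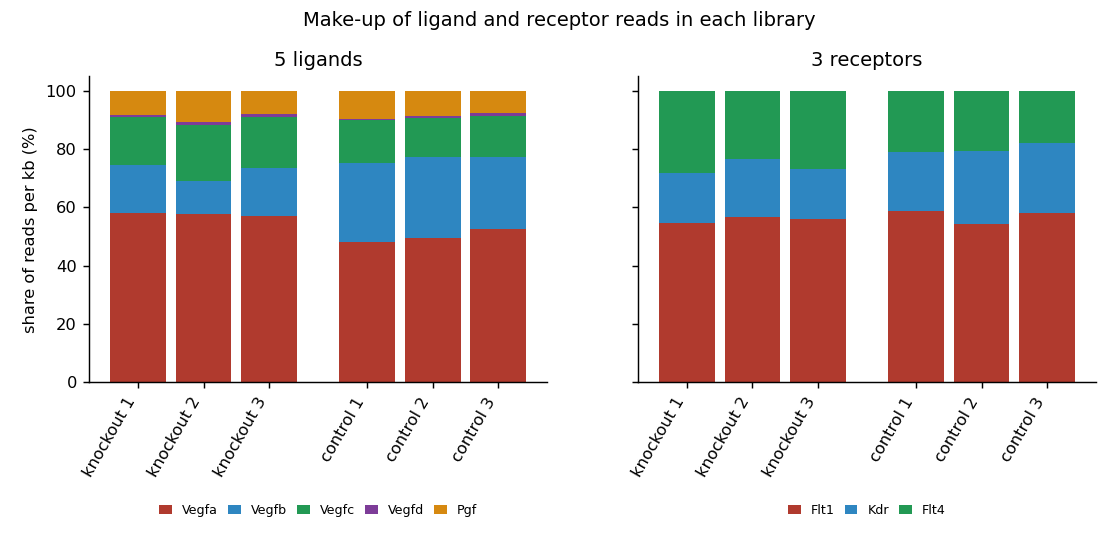
Share of each gene in the reads per kb of the 5 ligands (left) and of the 3 receptors (right), in percent, for the 3 knockout libraries and then the 3 control libraries; each bar is 1 library. Vegfa and Vegfc take more and Vegfb less of the ligand reads in knockout libraries, and Flt4 takes more of the receptor reads.

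Regulators of VEGF gene expression moved both ways. Of 15, 4 rose and 5 fell, with a median log2 fold change of 0.02; over all genes 19.6% were called higher and 18.7% lower, with a median of -0.002. Hif1a and Epas1 encode HIF subunits whose stability oxygen controls, and both rose: Hif1a to 276 ± 12.4 CPM in knockout, against 231 ± 8.79 CPM in control cultures, and Epas1 to 181 ± 1.75 CPM in knockout, against 142 ± 4.55 CPM in control cultures (SD, n = 3 each). Their log2 fold changes were 0.26 and 0.35, smaller than the 0.57 of Vegfa. Egln1, a hydroxylase that marks HIF subunits for degradation, fell to 58.0 ± 1.31 CPM in knockout, against 89.7 ± 1.36 CPM in control cultures (log2 fold change -0.63, adjusted p = 2e-08, edgeR). Arnt2, a dimer partner of HIF subunits, fell to 322 ± 14.95 CPM in knockout, against 414 ± 20.1 CPM in control cultures. Zfp36, which encodes an RNA-binding protein known to speed the decay of Vegfa mRNA, fell to 41.7 ± 1.96 CPM in knockout, against 56.6 ± 2.18 CPM in control cultures (log2 fold change -0.44, adjusted p = 1.3e-05, edgeR).

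VEGFC and VEGFD are made as precursors that proteases cut outside or inside the cell. Of 7 genes of this step 6 passed the filter, and 2 rose and 1 fell, beside 19.6% higher and 18.7% lower over all genes; at this list size such counts are close to that background. Klk4 had 0 counts in every library, which allows up to 3 counts in each. Ccbe1, which encodes a secreted cofactor for the cutting of VEGFC by ADAMTS3, was at 16.1, 18.7 and 17.1 CPM in knockout cultures, against 3.79, 3.15 and 3.44 CPM in control cultures. That is 5.01-fold, a log2 fold change of 2.32 ± 0.12 (SE) with an adjusted p of 3.2e-11 by edgeR. The protease gene Adamts3 itself was at 2.97 ± 0.792 CPM in knockout and 2.51 ± 0.225 CPM in control cultures (adjusted p = 0.42, edgeR), and Furin, a protease of the secretory pathway, at 163 ± 15.97 CPM in knockout and 154 ± 3.80 CPM in control cultures (adjusted p = 0.32, edgeR). These 2 genes were chosen after their values were seen. The proprotein convertase gene Pcsk5 rose to 9.57 ± 0.665 CPM in knockout, against 6.62 ± 1.14 CPM in control cultures, and Ctsd, cathepsin D, fell to 875 ± 39.8 CPM in knockout, against 991 ± 35.1 CPM in control cultures.

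Neuropilins also carry semaphorin signals with plexins. Of 13 class 3 semaphorin, plexin and adaptor genes 6 rose and 4 fell, with a median log2 fold change of 0.17, beside 19.6% higher and 18.7% lower over all genes. Without knockout replicate 3 or without control replicate 1 only 3 rose. Sema3c rose to 271 ± 11.1 CPM in knockout, against 168 ± 8.94 CPM in control cultures (log2 fold change 0.69, adjusted p = 4.4e-09, edgeR). Plxnd1, a plexin of vessels, rose to 429 ± 29.0 CPM in knockout, against 294 ± 8.93 CPM in control cultures (log2 fold change 0.55). Sema3f, a ligand of NRP2, fell to 24.2 ± 2.12 CPM in knockout, against 41.3 ± 1.11 CPM in control cultures (log2 fold change -0.77, adjusted p = 1.3e-07, edgeR), while its coreceptor gene Nrp2 rose. Sema3b fell to 63.1 ± 1.32 CPM in knockout, against 80.4 ± 0.257 CPM in control cultures.

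Downstream of the receptors, 11 of 50 signal relay genes rose and 15 fell, with a median log2 fold change of -0.03. Over all genes 19.6% were higher, which is near the share of relay genes that rose, and 18.7% were lower. The 4 with the smallest p were Ptgs2, Pla2g4a, Hspb1 and Pik3r1. Ptgs2, cyclooxygenase 2, was at 2349.7 ± 111 CPM in knockout and 1144 ± 49.96 CPM in control cultures (log2 fold change 1.04). Pla2g4a, the phospholipase that releases its substrate arachidonic acid, was at 207 ± 12.4 CPM in knockout and 109.7 ± 0.637 CPM in control cultures (log2 fold change 0.92). Hspb1, a heat shock protein gene whose product binds actin, fell to 79.1 ± 3.40 CPM in knockout, against 147.6 ± 7.17 CPM in control cultures (log2 fold change -0.90). Pik3r1, a regulatory subunit of phosphoinositide kinase, rose to 199 ± 2.79 CPM in knockout, against 124 ± 7.65 CPM in control cultures (log2 fold change 0.68). Nos3, the endothelial nitric oxide synthase gene, was near the detection limit, at 0.568 ± 0.137 CPM in knockout and 0.616 ± 0.172 CPM in control cultures, and was named after its values were seen.

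**Figure D4:**
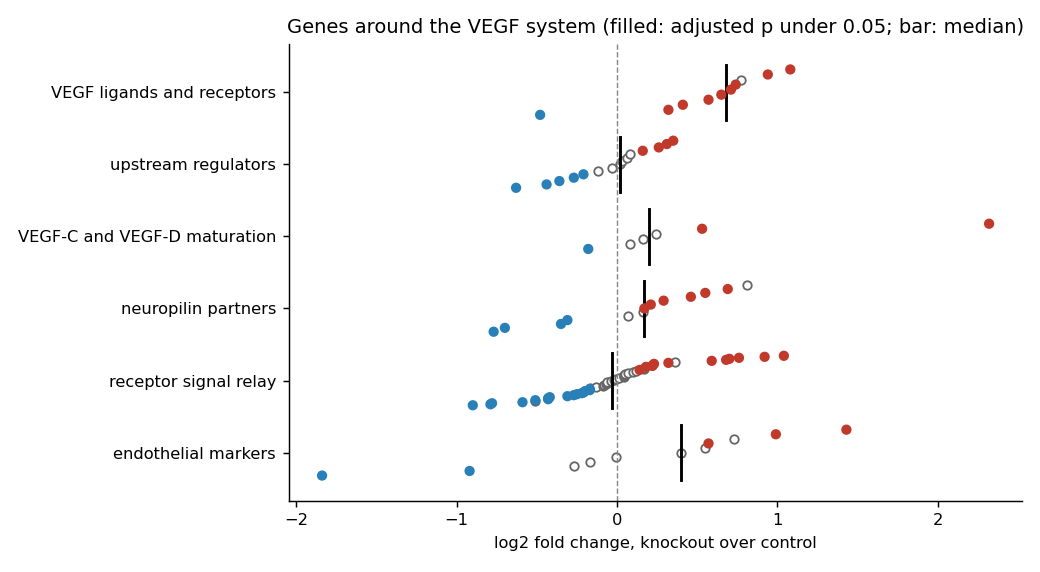
Log2 fold change, knockout over control, of every tested gene of 6 lists; filled points passed the test (red higher, blue lower), open points did not, and black bars are medians. The VEGF ligands and receptors have a median of 0.68, the upstream regulators 0.02 and the signal relay genes -0.03; the farthest point on the right is Ccbe1 at 2.32.

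VEGF receptors are best known from endothelium, so endothelial markers were read beside them. In bulk RNA, fewer cells of a type and less RNA per cell cannot be told apart. Of 15 endothelial markers 11 passed the filter, 3 rose and 2 fell, beside 19.6% higher and 18.7% lower over all genes. At this list size such counts are close to that background. The summed level of the 15 was 104 to 107 CPM in knockout and 78.1 to 83.5 CPM in control libraries. The highest of them was Cdh5, vascular endothelial cadherin, which rose to 53.4 ± 1.93 CPM in knockout, against 26.8 ± 0.439 CPM in control cultures. Cdh5 alone differed between the groups by no less than the sum did. Among the other called markers Abcb1a and Esam rose while Slco1a4 and Plvap fell, so the sum cannot tell whether these markers changed together. Esam, an adhesion molecule gene, was at 19.95 ± 2.03 CPM in knockout and 13.4 ± 0.691 CPM in control cultures, and Plvap, a gene of fenestrated endothelium, at 9.07 ± 0.854 CPM in knockout and 17.2 ± 2.31 CPM in control cultures. None of the 15 was at 0 in all libraries. Pecam1 was at 1.40 ± 0.826 CPM in knockout and 1.06 ± 0.134 CPM in control cultures (adjusted p = 0.43, edgeR), and Tie1 at 0.215 ± 0.0632 CPM in knockout and 0.213 ± 0.0796 CPM in control cultures. Cldn5, Erg, Sox17 and Robo4 did not pass the filter, with group means between 0.00923 CPM (Sox17 in control cultures) and 0.134 CPM (Robo4 in control cultures). On the scale of CPM per kb of exon, Flt1 (5.05 in knockout and 3.22 in control cultures) lay below Cdh5 (12.7 and 6.38, in the same order) and Esam (6.96 and 4.68), and above Pecam1 (0.224 and 0.1701). The part of endothelial cells in the levels of the VEGF receptor genes was not tested.

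Markers of other cells were counted in the same way, beside the 38.3% of all genes called in either direction. Of 10 tested markers of fibroblasts and meninges 6 rose and 2 fell, with sums of 4797 to 5434 CPM in knockout and 3161 to 3357 CPM in control libraries. Microglia and macrophage markers were 1 higher and 10 lower of 14, with sums of 123 to 131 CPM in knockout and 170 to 173 CPM in control libraries. Pericyte and smooth muscle markers were 4 higher and 3 lower of 9, and choroid plexus markers 1 higher and 4 lower of 6. The choroid plexus markers had a median log2 fold change of -1.54, with sums of 23.2 to 24.3 CPM in knockout and 42.7 to 45.6 CPM in control libraries. Among them Ttr, named after its values were seen, had 1, 0 and 2 counts in knockout libraries, against 1219, 1353 and 2048 in control libraries. Neuronal markers were 1 higher and 2 lower of 8, oligodendrocyte lineage markers 0 higher and 4 lower of 6, and ependymal markers 0 higher and 1 lower of 3. The counts of neuronal and ependymal markers were close to that background. No marker of these lists was at 0 in all libraries, and the part of these cells in the levels of VEGF ligands and receptors was not tested.

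Among the other protein-coding genes, 6170 averaged 5 or more on the log2 CPM scale, and the 5 whose profile over the 6 libraries lay closest to that of Vegfa were B4galt5, Itpkb, Lamb1, Pdgfrb and Plk2. Likeness was the root mean square difference of log2 CPM after centring each gene on its own mean, and it ran from 0.0218 for B4galt5 to 0.0301 for Plk2. B4galt5 had 196, 183 and 195 CPM in knockout libraries, against 132, 130 and 135 CPM in control libraries. Itpkb had 166, 156 and 167 CPM in knockout libraries, against 106.4, 105 and 108 CPM in control libraries. In both genes, as in Vegfa, knockout replicate 2 was the lowest of the knockout libraries. Such a shared order follows from the choice of genes by likeness over these libraries. The candidates included genes of any difference between genotypes, and the libraries compared are the same 6.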

How the data were processed

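Poly(A) RNA was sequenced from 6 libraries of cultured astrocytes. The authors deposited raw counts per gene, made with HISAT2 2.2.1 and featureCounts 2.0.6 on GRCm38 (mm10), per the submitters' processing notes. Annotation release, strand setting, treatment of multi-mapping reads and any later read filter: not given in the sources used here, so reads of near-identical genes may be lost or split. Columns were matched to libraries by library name.

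Genes passing filterByExpr (minimum count 10, minimum total 15; 18530 genes, 99.96% of counts) were fitted in R 4.3.3 with edgeR 4.0.16, using TMM, robust glmQLFit, glmQLFTest on genotype, two-sided, Benjamini-Hochberg over all genes, threshold 0.05. The pipeline was tested on simulated data. Standard errors come from the test statistic. Positions and exon lengths are from GENCODE M21 (GRCm38), which held 54495 of 54532 identifiers; promoters are from RefSeq. Copies were sought with BLAST 2.17.0 (at least 95% identity over 100 bases). Alternatives used DESeq2 1.42.0, limma 3.58.1 (voom), other scaling and filters, a replicate block and each library left out.

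Members and lists were chosen with earlier results of these data known. Named were all 10 members, Neo1, Hif1a, Epas1, up to 4 called genes per pathway list with the smallest p, and the 5 genes nearest Vegfa; others are said to be chosen later, apart from cell markers.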

Additional observations from a re-analysis of the deposited data

How the results depend on the processing

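Vegfa, Vegfc, Flt1, Flt4, Nrp1 and Nrp2 stayed above 0 and past the threshold under all 15 alternatives; their log2 fold changes ran from 0.50 to 0.59, 0.64 to 0.75, 0.58 to 0.69, 1.01 to 1.16, 0.67 to 0.79 and 0.87 to 0.97, in that order of genes. Over the 10 members and the 17 other genes named by rule from the lists, with Neo1, 398 of 405 values kept direction and call, 6 lost the call (Vegfb, Pgf and Kdr) and 1 gained it (Vegfd). With 1 library left out at a time, the number of members called lower was 0 to 1, and the number of neuropilin partners called higher was 3 to 6; the cause was not tested, and such fits rest on fewer samples. The difference in the Vegfa share of ligand reads was 4.75 points without division by length and 8.16 with the longest transcript, a length chosen after seeing the data; the cause was not tested. Same-numbered libraries did not deviate together (correlations of 0.02, 0.02 and -0.01), and no label says that the numbers pair libraries. Whether libraries share a litter or culture day cannot be told from deviations around means of 3. With the replicate block 3501 genes were higher and 3383 lower, and 8 members rose and 1 fell. Depth limits Vegfd alone among the members, with 31 counts in 1 library.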

Other observations

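Among the endothelial markers, the called genes other than Cdh5 went different ways. They were chosen after their values were seen. Abcb1a, which encodes the efflux pump P-glycoprotein, rose to 13.4 ± 1.26 CPM in knockout, against 5.01 ± 0.631 CPM in control cultures (SD, n = 3 each), a log2 fold change of 1.43. Slco1a4, an organic anion transporter gene, fell to 3.70 ± 0.478 CPM in knockout, against 13.2 ± 0.845 CPM in control cultures (-1.84 on the log2 scale). Plvap, a gene of fenestrated endothelium, fell to 9.07 ± 0.854 CPM in knockout, against 17.2 ± 2.31 CPM in control cultures (-0.92), while Esam rose to 19.95 ± 2.03 CPM in knockout, against 13.4 ± 0.691 CPM in control cultures (0.57).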
